A study of Mus musculus with 22 samples.

Results

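Autophagy builds a double-membrane vesicle, the autophagosome, around cytoplasmic cargo and delivers it to the lysosome. *Ulk1*, *Ulk2*, *Becn1*, *Atg14*, *Uvrag*, *Wipi1*, *Wipi2*, *Atg7*, *Atg9a* and *Atg16l1*, 10 genes that act when this vesicle is started and formed, were taken by symbol from the 55573 genes of a liver mRNA-seq count table, and all 10 were found and could be tested. The data are 22 livers of C57BL/6 mice, 1 library per mouse. Cre mice (*Flcn* WT/WT; Albumin-Cre+/-) were fed chow with 10 kcal percent fat (Cre Chow, n = 6) or a methionine/choline deficient diet (Cre MCD, n = 5). FLCN KO mice (*Flcn* f/f; Albumin-Cre) were fed the same chow (FLCN KO Chow, n = 5) or the MCD diet (FLCN KO MCD, n = 6). Diets began at 6 weeks of age and lasted 6 weeks, and the labels give all 22 mice the same age in months. All 22 mice carried Albumin-Cre, which drives recombination in hepatocytes and removes exon 7 of a floxed *Flcn* allele, so other liver cells of FLCN KO mice keep the gene. FLCN, folliculin, acts on the lysosomal surface in nutrient signalling through mTORC1, and the study asked how its loss in liver bears on diet-induced fibrosis and on autophagy.

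Initiation starts with the ULK1 and ULK2 kinases, which mTORC1 inhibits and AMPK can activate. They act on the class III PI3-kinase complex, which holds Beclin 1 (*Becn1*) together with ATG14 at the forming membrane or UVRAG at later, endosomal steps, and which makes the lipid PI3P. ATG9A, a lipid scramblase on small vesicles, brings membrane to the site, WIPI1 and WIPI2 bind PI3P there, and WIPI2 recruits ATG16L1. ATG7, an E1-like enzyme, and the ATG12-ATG5-ATG16L1 complex then attach ATG8 proteins such as LC3 to the membrane. In hepatocytes this route is known for the turnover of proteins, mitochondria and lipid droplets. The counts are of mRNA and say nothing on kinase activity or on autophagic flux, which were not measured in these libraries.

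Levels are in CPM, the reads of a gene scaled to a common library size, with TMM factors that set this scale by the bulk of the genes. Reads counted on genes were 13751347 to 21144388 per library, and the least abundant of the 10 genes, *Atg14*, still had 181 to 358 counts in every liver. The test was the quasi-likelihood test of edgeR, two-sided, in 1 fit of the 4 groups with adjustment over 14062 genes, and a gene is called higher or lower where the adjusted p was under 0.05. Replicates are separate mice.

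*Flcn* was measured first, as the targeted gene. Cre Chow livers ranged from 26.1 to 40.2 CPM (median 31.8), and the 5 FLCN KO Chow livers had 24.2, 20.0, 16.7, 19.4 and 21.8 CPM, with no overlap. On MCD the 5 Cre livers had 31.7, 18.2, 39.9, 32.5 and 23.6 CPM and the FLCN KO livers ranged from 17.6 to 32.6 CPM (median 26.6), and the groups overlapped. The log2 fold change between genotypes was −0.63 on chow (SE 0.173, adjusted p = 0.025 by edgeR) and −0.16 on MCD (SE 0.17, adjusted p = 0.57 by edgeR). The call on chow was lost without the libraries Cre Chow 6, FLCN KO Chow 3 or FLCN KO Chow 4 (adjusted p = 0.056, 0.066 and 0.069 by edgeR), and without 5 chow libraries described next (−0.55, adjusted p = 0.24 by edgeR). Of 13 fits that changed the tool, scaling, filter, covariate or set of libraries, 7 called *Flcn* on chow, with values from −0.69 to −0.48. On MCD the lowest adjusted p of the 13 was 0.14, and the value ran from −0.66 to 0.24, the positive one within the livers with *Xist*; without the library Cre MCD 3 it was −0.027 (adjusted p = 0.93 by edgeR). Reads from the remaining exons and from other liver cells are counted too, so whole-gene counts check the deletion only in part.

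Some libraries stood apart from their groups in ways the labels do not give. The labels state no sex, and 12 livers had 5411 to 7573 counts of *Xist* while 10 had 703 to 2172 counts of the Y-linked gene *Ddx3y* and at most 19 of *Xist*. The Y-linked class held 3 of 6 Cre Chow, 2 of 5 Cre MCD, 2 of 5 FLCN KO Chow and 3 of 6 FLCN KO MCD livers. Cre MCD 1 and FLCN KO Chow 2 had *Xist* together with 378 and 263 counts of *Ddx3y*. All 5 chow livers of the Y-linked class (Cre Chow 1, 5 and 6 and FLCN KO Chow 1 and 3) were also the chow libraries with a low mapped share of reads, so class and mapping cannot be told apart on chow. Cre MCD 3 held RNA of skeletal muscle: its 6 muscle markers summed to 1693 CPM, against 0.769 to 86.7 CPM in the other Cre MCD livers and 1.19 to 3.72 CPM in Cre Chow. The sum was also above the Cre Chow range in Cre MCD 4 (86.7 CPM), Cre MCD 1 (11.9 CPM), FLCN KO MCD 3 (36.5 CPM) and FLCN KO Chow 3 (7.99 CPM), and at most 1.76 CPM in the other 9 FLCN KO livers.

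Levels of different genes were compared per kilobase of exons (RPKM, from the exon lengths of GENCODE M21). In Cre Chow the order ran from *Ulk2* at 13.1 ± 2.61 RPKM (SD, n = 6) over *Ulk1* at 11.1 ± 2.87, *Becn1* at 9.47 ± 1.15 and *Wipi2* at 9.05 ± 1.13 RPKM, and these neighbours lay within their SDs of each other. *Atg7* followed at 5.99 ± 0.756 RPKM, with *Wipi1* at 5.24 ± 1.83, *Atg9a* at 4.88 ± 0.938, *Atg14* at 4.50 ± 1.13, *Atg16l1* at 3.54 ± 0.353 and *Uvrag* at 3.21 ± 0.798 RPKM, again within their SDs from one to the next. *Ulk2* stood highest of the 10 in Cre Chow but at 4.10 ± 0.994 RPKM (SD, n = 5) in place 6 in Cre MCD, at 6.42 ± 1.05 RPKM (SD, n = 5) in place 5 in FLCN KO Chow and at 3.35 ± 0.508 RPKM (SD, n = 6) in place 7 in FLCN KO MCD. *Atg7* had the highest level of the 10 in FLCN KO MCD, at 9.04 ± 1.07 RPKM (SD, n = 6), where *Becn1*, *Ulk1* and *Wipi2* lay within the SD of the level above.

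**Figure D1:**
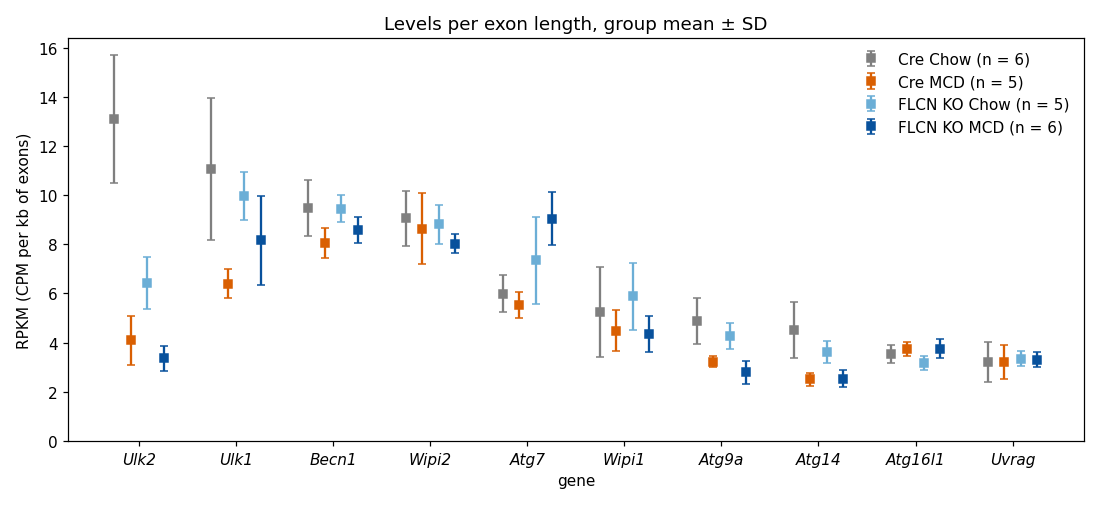
Level per exon length of each gene (vertical axis, RPKM) in the 4 groups, ordered by the level in Cre Chow, with squares for the group mean and bars for 1 SD over livers. *Ulk2* falls from 13.1 RPKM in Cre Chow to 3.35 RPKM in FLCN KO MCD, while *Atg16l1* and *Uvrag* stay between 3.17 and 3.75 RPKM in all groups.

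With MCD in Cre livers 5 of the 10 genes were called, all lower: *Ulk1*, *Ulk2*, *Becn1*, *Atg14* and *Atg9a*. Over all 14062 genes 29.3% were called higher and 28.2% lower in that comparison. At an unadjusted p under 0.05 the same number of the 10 were lower and 0 higher. DESeq2 and limma-voom also called 5, beside 8087 and 7920 of the 14062 genes. The median log2 fold change of the 10 was −0.23, against 0.012 over all genes tested. With MCD in FLCN KO livers 3 of the 10 were called lower (*Ulk2*, *Atg14* and *Atg9a*) and *Atg16l1* higher, beside 22.5% of all genes called higher and 22.5% lower, and the medians were −0.21 for the 10 genes and 0.0043 for all genes. Between genotypes on chow *Ulk2* alone was called, lower in FLCN KO, beside 5.52% of all genes higher and 3.1% lower. Between genotypes on MCD *Atg7* alone was called, higher in FLCN KO, beside 8.06% of all genes higher and 8.53% lower. At an unadjusted p under 0.05 by edgeR, 6 of the 10 passed with MCD in FLCN KO livers. The same threshold gave 3 between genotypes on chow, 2 between genotypes on MCD and 3 for the interaction. The share of all genes at the unadjusted threshold is not given here, so these counts are not read as a trait of the 10. After adjustment 57.5% of all genes passed with MCD in Cre livers and 45% in FLCN KO livers. Between genotypes 8.62% passed on chow and 16.6% on MCD, and 8.83% passed for the interaction. The 4 comparisons share groups in pairs (Cre Chow, for example, stands in the MCD response of Cre livers and in the genotype difference on chow) and are not independent of each other.

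**Figure D2:**
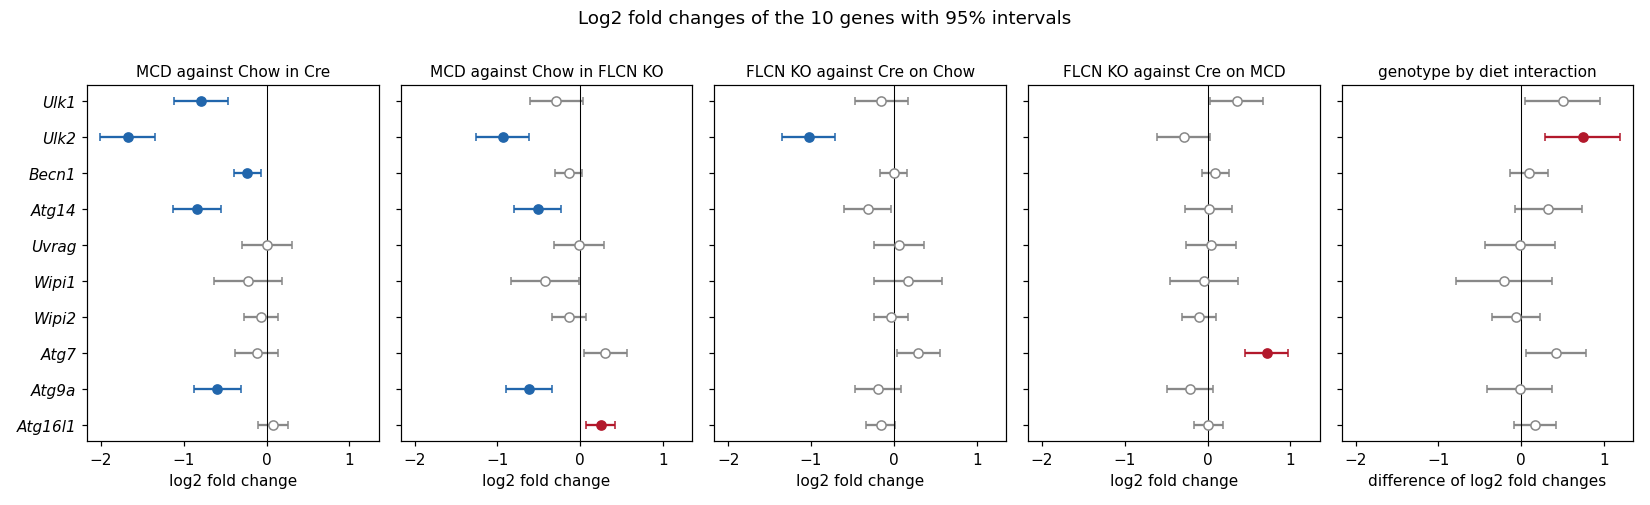
Log2 fold change of each gene (horizontal axis) in the 4 comparisons and the interaction, with 95% intervals from the edgeR fit; filled points passed an adjusted p of 0.05, blue lower and red higher, and open grey points did not. *Ulk2* has the lowest value in both MCD panels and on chow, at −1.68, −0.94 and −1.03, *Atg7* the highest on MCD at 0.71, and the sign of *Becn1* in the first panel turns with scaling by library size alone.

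The scale matters for the diet comparisons. Without TMM factors, with library size alone, the median of all genes shifted by 0.42 on the log2 scale for MCD in Cre livers, 0.262 for MCD in FLCN KO livers, 0.148 between genotypes on chow, −0.011 between genotypes on MCD and −0.159 for the interaction. The share of called genes that were higher then moved from 50.9 to 81.9%, from 49.97 to 77.0%, from 64.0 to 92.1%, from 48.6 to 47.7% and from 37.3 to 12.5%. All changes here are given relative to the bulk of genes, as TMM sets it. On library size alone *Ulk1*, *Ulk2* and *Atg14* were still called lower with MCD in Cre livers, *Atg9a* was not (−0.17, adjusted p = 0.24 by edgeR), and *Becn1* turned to 0.19 (adjusted p = 0.026 by edgeR). These moves are of the size of the shift of all genes and are not particular to the members. On that scale *Uvrag*, *Wipi2*, *Atg7* and *Atg16l1* were called higher there, by 0.43, 0.36, 0.30 and 0.50, and *Atg14* with MCD in FLCN KO livers was −0.25 and not called (adjusted p = 0.11 by edgeR).

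*Ulk2* (ENSMUSG00000004798, minus strand, chr11:61775649-61855073 of GRCm38) encodes the kinase closest to ULK1. Except between genotypes on MCD, *Ulk2* had the largest differences of the 10 genes. Cre Chow livers ranged from 61.0 to 106 CPM (median 74.1). The 5 Cre MCD livers had 24.8, 19.3, 34.5, 22.9 and 21.0 CPM, and the 5 FLCN KO Chow livers 35.6, 46.3, 43.7, 32.0 and 34.1 CPM. FLCN KO MCD livers ranged from 16.3 to 24.1 CPM (median 19.9). Every Cre Chow liver was above every other liver of the study, every FLCN KO Chow liver was above every FLCN KO MCD liver, and the MCD groups of both genotypes overlapped. The highest Cre MCD value was in Cre MCD 3, the library with the most muscle RNA. The level was 3.2-fold lower with MCD in Cre livers (log2 fold change −1.68, SE 0.159, adjusted p = 2.1e-08 by edgeR), and the log2 fold change was −1.83 without Cre MCD 3 (adjusted p = 4.2e-09 by edgeR). In FLCN KO livers it was 1.91-fold lower (−0.94, SE 0.154, adjusted p = 4.4e-05 by edgeR).

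Between genotypes *Ulk2* was 2.04-fold lower in FLCN KO livers on chow (log2 fold change −1.03, SE 0.156, adjusted p = 1.5e-04 by edgeR). Within the 12 livers with *Xist* that difference was −0.90 (adjusted p = 0.0072 by edgeR), within the 10 livers with Y-linked counts −1.10 (adjusted p = 0.042 by edgeR), and without the 5 chow libraries of low mapped share −0.90 (adjusted p = 0.016 by edgeR). On MCD the genotype difference of *Ulk2* was −0.29 (95% interval −0.61 to 0.031, adjusted p = 0.22 by edgeR), and −0.13 without Cre MCD 3 (adjusted p = 0.57 by edgeR). The interaction, the log2 response to MCD in FLCN KO minus that in Cre livers, was 0.74 (SE 0.218, adjusted p = 0.038 by edgeR), beside 3.29% of all genes called with a positive and 5.54% with a negative interaction, and no other member of the 10 was called. The call was not stable: it was lost in 11 of 22 fits that left out 1 library, namely Cre Chow 5 and 6, Cre MCD 1, 2, 4 and 5, FLCN KO Chow 1, 4 and 5 and FLCN KO MCD 1 and 6 (adjusted p from 0.055 to 0.075 by edgeR). Without the muscle-bearing Cre MCD 3 it was 0.89 (adjusted p = 0.0081 by edgeR), and without the 5 chow libraries of low mapped share 0.61 (adjusted p = 0.16 by edgeR).

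Promoter windows of RefSeq (GRCm38.p6) were at hand for 8 of the 10 genes, not for *Becn1* and *Atg16l1*, and run from 250 bases before to 50 after a RefSeq start. The 150 bases before the start of *Ulk2* are shown, since this gene carried the largest change. They lie at chr11:61855093-61855242 on the minus strand, outside the annotated exons, and the RefSeq start is 19 bases before the GENCODE gene. The whole window has 74.7% G and C.
Ulk2: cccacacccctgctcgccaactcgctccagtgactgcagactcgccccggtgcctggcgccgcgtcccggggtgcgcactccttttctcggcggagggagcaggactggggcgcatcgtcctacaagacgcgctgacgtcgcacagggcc
The palindrome CACGTG, the core of the E-box that TFEB and TFE3 can bind, was searched on both strands, as were GTAAACA (a forkhead motif) and TGACGTCA (the cAMP response element). CACGTG was in the windows of 2 of the 8 genes, *Atg14* and *Atg7*, and in 7.15% of all 32851 windows. GTAAACA and TGACGTCA were in 0 of the 8, and in 3.65% and 1.79% of all windows. The *Atg14* stretch that holds CACGTG, in capitals, lies at chr14:47568418-47568447 on the minus strand. All 30 bases lie in annotated exons of the gene, and 2 of its 4 GENCODE transcripts have exons that overlap the stretch at least in part. The motif runs from base −1 to base 4, counted from the RefSeq start as 0, and that start lies 2215 bases inside the GENCODE gene.
Atg14: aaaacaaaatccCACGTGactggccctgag
The RefSeq start used for *Atg7* lies 27999 bases inside the GENCODE gene and 9066 bases from the nearest GENCODE transcript start. A match of letters in these windows is a description and was not tested for binding.

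*Ulk1* (ENSMUSG00000029512, minus strand, chr5:110784488-110810097) encodes the kinase of the initiating complex. Cre Chow livers ranged from 49.7 to 104 CPM (median 65.8), and the 5 Cre MCD livers had 44.1, 38.8, 45.5, 43.0 and 36.2 CPM, all below them. The 5 FLCN KO Chow livers had 60.6, 62.0, 75.0, 59.8 and 65.9 CPM, and FLCN KO MCD livers ranged from 41.1 to 69.7 CPM (median 48.1), with overlap. The MCD response was −0.79 in Cre livers (SE 0.156, adjusted p = 2.0e-04 by edgeR, 1.73-fold lower) and −0.29 in FLCN KO livers (95% interval −0.61 to 0.03, adjusted p = 0.13 by edgeR). The second value passed without FLCN KO MCD 1, the highest liver of its group (−0.38, adjusted p = 0.046 by edgeR). Of 13 other fits 1 called it, that with a replicate block (−0.39, adjusted p = 0.016 by edgeR). Cre Chow 6 and 5, of the Y-linked class, had the highest values of *Ulk1*, and within the livers with *Xist* the response in Cre was −0.58 (adjusted p = 0.0045 by edgeR). The interaction for *Ulk1* was 0.50 (95% interval 0.047 to 0.95, adjusted p = 0.16 by edgeR), and the loss of significance in FLCN KO livers is therefore not shown to be a difference between genotypes. The genotype difference was 0.35 on MCD (adjusted p = 0.13 by edgeR) and −0.15 on chow (adjusted p = 0.60 by edgeR), the second turning to 0.067 without the 5 chow libraries of low mapped share (adjusted p = 0.90 by edgeR).

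**Figure D3:**
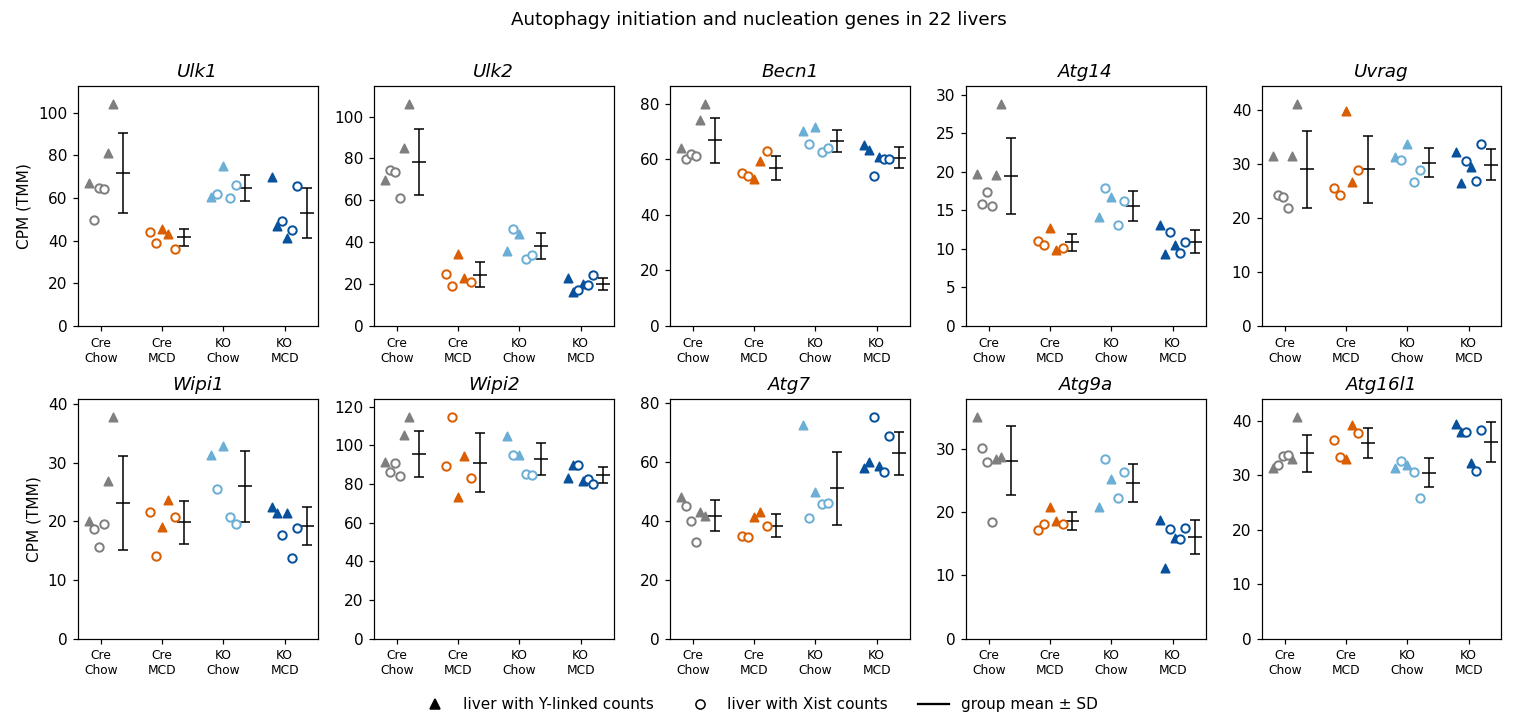
Level of each gene in every liver (vertical axis, CPM after TMM, from 0) in the 4 groups, with triangles for livers with Y-linked counts, open circles for livers with *Xist* and black bars for the group mean and SD. *Ulk2* in Cre Chow (61.0 to 106 CPM) sits above all other livers, and *Atg7* in FLCN KO MCD (56.8 to 75.4 CPM) sits above all Cre livers of both diets.

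Of the members of the class III PI3-kinase complex, *Atg14* was lower with MCD in both genotypes. *Atg14* (ENSMUSG00000037526, minus strand, chr14:47540893-47570649) encodes the subunit that brings the kinase to the site where autophagosomes form. Cre Chow livers ranged from 15.6 to 28.8 CPM (median 18.5) and the 5 Cre MCD livers had 11.0, 10.6, 12.7, 9.85 and 10.1 CPM. The 5 FLCN KO Chow livers had 14.1, 17.8, 16.7, 13.1 and 16.2 CPM and FLCN KO MCD livers ranged from 9.38 to 13.1 CPM (median 10.7). Chow and MCD livers did not overlap in either genotype, although in FLCN KO the nearest livers differed by under 1 CPM. The response of *Atg14* to MCD was −0.84 in Cre livers (SE 0.14, adjusted p = 3.0e-05 by edgeR) and −0.51 in FLCN KO livers (SE 0.138, adjusted p = 0.0044 by edgeR). Within the livers with *Xist* these were −0.62 and −0.53 (adjusted p = 0.0018 and 0.0070 by edgeR), and within those with Y-linked counts −0.99 and −0.51 (adjusted p = 0.0086 and 0.14 by edgeR). Between genotypes the value was −0.32 on chow (adjusted p = 0.16 by edgeR) and 0.011 on MCD (95% interval −0.28 to 0.30, adjusted p = 0.97 by edgeR). The value on chow ran from −0.53, within the livers with Y-linked counts, to −0.046, within those with *Xist*, over 13 other fits, and was −0.049 without the 5 chow libraries of low mapped share (adjusted p = 0.35, 0.89 and 0.92 by edgeR).

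*Becn1* (ENSMUSG00000035086, minus strand, chr11:101285952-101302286), the scaffold of the complex, moved little. Cre Chow livers ranged from 60.1 to 79.9 CPM (median 63.0), the 5 Cre MCD livers had 55.2, 53.9, 52.7, 59.3 and 63.1 CPM, the 5 FLCN KO Chow livers had 70.0, 65.6, 71.7, 62.5 and 64.0 CPM, and FLCN KO MCD livers ranged from 54.1 to 65.1 CPM (median 60.5). The groups overlapped in each comparison. Its response to MCD was −0.23 in Cre livers (SE 0.0782, adjusted p = 0.014 by edgeR) and −0.14 in FLCN KO livers (95% interval −0.30 to 0.023, adjusted p = 0.15 by edgeR), and on library size alone the value in Cre livers changed sign. The call in Cre livers was lost within the livers with *Xist* (−0.090, adjusted p = 0.42 by edgeR), within those with Y-linked counts (−0.35, adjusted p = 0.057 by edgeR) and without the 5 chow libraries of low mapped share (−0.11, adjusted p = 0.25 by edgeR), and also without a filter on low counts or in a fit of only the groups compared (adjusted p = 0.079 and 0.053 by edgeR). Of its exon bases 43.9% are shared with *Cntd1* on the opposite strand, which had at most 8 counts.

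*Uvrag* (ENSMUSG00000035354, minus strand, chr7:98885021-99141141), the partner of Beclin 1 at endosomes, was called in none of the 5 tests. It ranged from 21.8 to 41.1 CPM in Cre Chow (median 27.9), had 25.5, 24.2, 39.8, 26.7 and 29.0 CPM in Cre MCD and 31.3, 30.7, 33.8, 26.7 and 28.8 CPM in FLCN KO Chow, and ranged from 26.5 to 33.7 CPM in FLCN KO MCD (median 30.1). All 4 groups overlapped, and the highest liver of Cre MCD was again the one with the most muscle RNA. The log2 fold changes were 0.0024 with MCD in Cre livers (95% interval −0.30 to 0.30) and −0.017 in FLCN KO livers (95% interval −0.32 to 0.28), so a change of more than 0.32 either way lies outside both intervals. Without Cre MCD 3 the value in Cre livers turned to −0.14 (adjusted p = 0.40 by edgeR), and the genotype difference on MCD went from 0.042 to 0.18 (adjusted p = 0.38 by edgeR). An antisense gene, *Gm45187*, shares 17.6% of its exon bases and had at most 19 counts.

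*Atg9a* (ENSMUSG00000033124, minus strand, chr1:75180860-75192196), the transmembrane protein of the vesicles that seed the membrane, was lower with MCD in both genotypes. Cre Chow livers ranged from 18.4 to 35.0 CPM (median 28.5), and the 5 Cre MCD livers had 17.2, 18.1, 20.9, 18.6 and 18.2 CPM. Apart from Cre Chow 4, at 18.4 CPM, every Cre Chow liver was above every Cre MCD liver. The 5 FLCN KO Chow livers had 20.9, 28.3, 25.2, 22.2 and 26.4 CPM, all above FLCN KO MCD, which ranged from 11.1 to 18.8 CPM (median 16.6). The log2 fold change was −0.60 in Cre livers (SE 0.135, adjusted p = 7.8e-04 by edgeR) and −0.62 in FLCN KO livers (SE 0.134, adjusted p = 7.8e-04 by edgeR), and the interaction was −0.021 (95% interval −0.41 to 0.37, adjusted p = 0.96 by edgeR). Within the livers with *Xist* the 2 responses were −0.52 and −0.60 (adjusted p = 0.015 and 0.0090 by edgeR) and within those with Y-linked counts −0.62 and −0.61 (adjusted p = 0.0499 and 0.066 by edgeR). Between genotypes on chow *Atg9a* was −0.19 (adjusted p = 0.42 by edgeR), and 0.0035 without the 5 chow libraries of low mapped share (adjusted p = 0.996 by edgeR). A transcript on the same strand, *Gm29253*, shares 31.8% of the exon bases of *Atg9a* and had at most 3 counts.

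The PI3P-binding pair *Wipi1* (ENSMUSG00000041895, minus strand, chr11:109573331-109611967) and *Wipi2* (ENSMUSG00000029578, plus strand, chr5:142627698-142670588) was called in no comparison. *Wipi1* ranged from 15.7 to 37.8 CPM in Cre Chow (median 19.8), had 21.6, 14.0, 19.0, 23.7 and 20.7 CPM in Cre MCD and 31.2, 25.5, 32.8, 20.7 and 19.5 CPM in FLCN KO Chow, and ranged from 13.7 to 22.5 CPM in FLCN KO MCD (median 20.1). On chow the livers with Y-linked counts had higher values of *Wipi1* than the livers with *Xist* in both genotypes. Its MCD response was −0.22 in Cre livers (adjusted p = 0.35 by edgeR), where the sign turned to 0.13 without the 5 chow libraries of low mapped share, 0.062 within the livers with *Xist* and 0.20 on library size alone (adjusted p = 0.54, 0.79 and 0.34 by edgeR). It was −0.43 in FLCN KO livers (95% interval −0.84 to −0.018, adjusted p = 0.083 by edgeR). The second value passed without Cre Chow 6 (−0.43, adjusted p = 0.039 by edgeR), without FLCN KO Chow 5 (−0.52, adjusted p = 0.049 by edgeR) and with the class of *Xist* or Y-linked counts as a covariate (−0.46, adjusted p = 0.014 by edgeR), and was −0.19 without the 5 chow libraries (adjusted p = 0.37 by edgeR). Of 13 fits with another tool, scaling, filter, covariate or set of libraries 2 called it, with values from −0.58 to −0.16. *Wipi2* was more even. It ranged from 84.3 to 114 CPM in Cre Chow (median 91.1) and from 80.3 to 90.0 CPM in FLCN KO MCD (median 82.9). The 5 Cre MCD livers had 89.5, 115, 73.5, 94.3 and 83.3 CPM and the 5 FLCN KO Chow livers 105, 95.2, 94.9, 85.0 and 84.9 CPM. All groups overlapped, and the log2 fold changes of *Wipi2* were −0.067, −0.14, −0.038 and −0.11 in the 4 comparisons. The first was 0.0021 without Cre MCD 3 (adjusted p = 0.99 by edgeR).

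*Atg7* (ENSMUSG00000030314, plus strand, chr6:114643097-114860614), whose enzyme both conjugation reactions need, was the one member called higher in FLCN KO than in Cre livers, and only on MCD. On MCD the 5 Cre livers had 34.8, 34.7, 41.3, 43.1 and 38.5 CPM, and FLCN KO livers ranged from 56.8 to 75.4 CPM (median 59.4), with no overlap. On chow Cre livers ranged from 32.7 to 48.2 CPM (median 42.4) and the 5 FLCN KO livers had 72.6, 41.2, 49.8, 45.9 and 46.3 CPM, with overlap and with FLCN KO Chow 1 far above the others. *Atg7* was 1.64-fold higher in FLCN KO on MCD (log2 fold change 0.71, SE 0.126, adjusted p = 5.9e-04 by edgeR), and on chow the value was 0.29 (95% interval 0.033 to 0.55, adjusted p = 0.15 by edgeR). The MCD difference was 0.90 within the livers with *Xist* (adjusted p = 8.1e-04 by edgeR) and 0.47 within those with Y-linked counts, which did not pass (adjusted p = 0.12 by edgeR). The highest *Atg7* level, 75.4 CPM, was in FLCN KO MCD 3, a liver with some muscle RNA, and without it the MCD difference was 0.65 (adjusted p = 0.0020 by edgeR). Without Cre MCD 3 or Cre MCD 4 it was 0.74 and 0.75 (adjusted p = 9.7e-04 and 0.0011 by edgeR).

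The diet response of *Atg7* was −0.12 in Cre livers (adjusted p = 0.44 by edgeR) and 0.30 in FLCN KO livers (95% interval 0.042 to 0.56, adjusted p = 0.054 by edgeR). The second value lay close to the threshold, and 7 of 13 fits with another tool, scaling, filter, covariate or set of libraries called it, with values from −0.067 to 0.59 and adjusted p from 5.1e-04 to 0.80. Without FLCN KO Chow 1 it was 0.46 (adjusted p = 0.0013 by edgeR), and the interaction, 0.42 with all livers (adjusted p = 0.14 by edgeR), became 0.58 (adjusted p = 0.016 by edgeR). The response in FLCN KO also passed without Cre Chow 4 (adjusted p = 0.044 by edgeR) or FLCN KO MCD 5 (adjusted p = 0.048 by edgeR). Within the livers with *Xist* the interaction was 0.71 (adjusted p = 0.031 by edgeR), and within those with Y-linked counts −0.018 (adjusted p = 0.99 by edgeR). The Y-linked class holds only 2 FLCN KO Chow livers, and FLCN KO Chow 1 is among them. Its fit called 63 of 13967 genes for the interaction, and that of the livers with *Xist* 1219 of 14095. A difference between the classes was not tested.

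*Atg16l1* (ENSMUSG00000026289, plus strand, chr1:87755870-87792428), the membrane-bound part of the complex that places LC3, ranged from 31.3 to 40.7 CPM in Cre Chow (median 33.4) and had 36.4, 33.4, 33.0, 39.2 and 37.7 CPM in Cre MCD. The 5 FLCN KO Chow livers had 31.4, 32.6, 32.0, 30.7 and 25.9 CPM, and FLCN KO MCD livers ranged from 30.8 to 39.4 CPM (median 38.0), so that 4 of 6 lay above all FLCN KO Chow livers. The response to MCD was 0.25 in FLCN KO (SE 0.086, adjusted p = 0.024 by edgeR, 1.19-fold higher) and 0.077 in Cre livers (95% interval −0.10 to 0.25, adjusted p = 0.46 by edgeR), and the interaction was not called (0.17, adjusted p = 0.42 by edgeR). The call was lost without FLCN KO Chow 5 (0.19, adjusted p = 0.086 by edgeR) and without FLCN KO MCD 1 (0.22, adjusted p = 0.053 by edgeR), and within the livers with *Xist* or with Y-linked counts the value was 0.27 and 0.19 (adjusted p = 0.080 and 0.44 by edgeR). It was also lost without a filter on low counts (0.25, adjusted p = 0.061 by edgeR) and with a replicate block (0.21, adjusted p = 0.061 by edgeR), so that 9 of 13 other fits made the call.

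Markers of liver cell types moved with the diet beside these genes. Of 6 hepatocyte markers 5 were lower with MCD in Cre and 4 in FLCN KO livers; *Alb* was the most abundant and none was at 0. Their summed level ranged from 97193 to 146150 CPM in Cre Chow (median 119572), was 84974, 62346, 98286, 92129 and 86906 CPM in Cre MCD and 75688, 120783, 80799, 109771 and 122354 CPM in FLCN KO Chow, and ranged from 58418 to 78168 CPM in FLCN KO MCD (median 67904). All 3 neutrophil markers, led by *S100a9*, were higher with MCD in both genotypes; they summed to 1.29 to 6.74 CPM in Cre Chow, 10.1 to 54.6 in Cre MCD, 2.26 to 6.65 in FLCN KO Chow and 7.44 to 23.2 CPM in FLCN KO MCD. Of 6 stellate cell markers 4 were higher with MCD in Cre livers, where they summed to 104 to 314 CPM (the highest in Cre MCD 3, which holds muscle RNA, where *Des*, one of the 6, is also expressed, and at most 158 CPM in the other 4) against 56.6 to 112 CPM in Cre Chow, and 4 were lower in FLCN KO than in Cre livers on MCD. Without Cre MCD 3 these counts were 3 and 2. Of 8 macrophage and Kupffer cell markers, led by *Clec4f*, 3 were higher and 2 lower with MCD in Cre and 1 higher and 4 lower in FLCN KO livers, and of 5 endothelial markers 1 was higher and 2 lower in Cre and 3 lower in FLCN KO livers. Of 4 bile duct markers, led by *Sox9*, 2 were higher with MCD in Cre livers. Their sum was 20.4 to 27.4 CPM in Cre MCD. Cre Chow 5 stood apart at 47.5 CPM, against 10.7 to 16.7 CPM in the other Cre Chow livers. Of 4 lymphocyte markers, whose sum was at most 5.46 CPM in any liver, 3 were lower with MCD in FLCN KO livers. All 6 skeletal muscle markers were higher with MCD in Cre and lower in FLCN KO than in Cre livers on MCD; without Cre MCD 3 only 4 had enough counts to test, and 3 of these were higher with MCD in Cre livers, while the calls between genotypes on MCD were lost (median log2 fold change −1.88). Between genotypes on MCD, where *Atg7* was called, 1 macrophage marker was higher and 2 lower in FLCN KO, and 1 endothelial and 1 bile duct marker were higher. Without Cre MCD 3 the bile duct call was lost and 1 neutrophil marker was called lower, and the macrophage and endothelial counts were as before. On chow 1 hepatocyte marker was lower in FLCN KO, and 1 macrophage and 1 endothelial marker were higher. For the interaction, where *Ulk2* was called, 1 hepatocyte marker was called with a positive value. Negative values were called for 3 macrophage and 2 stellate cell markers. Without Cre MCD 3 the stellate count of the interaction was 1, and its hepatocyte and macrophage counts were as before. In these bulk samples fewer cells of a type and less RNA per cell cannot be told apart, and the part of these shifts in the values of the 10 genes was not tested.

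Around the 10 genes, 32 further genes of the machinery were listed and 31 had enough counts to test (*Atg9b*, at most 12 counts, did not). With MCD 18 of the 31 were called in Cre livers, 6 higher and 12 lower, and 12 in FLCN KO livers, 7 higher and 5 lower; the medians were −0.15 and 0.030. These are 58.1% and 38.7% of the 31, beside 57.5% and 45% of all genes called in either direction. Between genotypes 4 were called on chow (1 higher, 3 lower) and 3 on MCD, all higher in FLCN KO, which are 12.9% and 9.68% beside 8.62% and 16.6% of all genes. The interaction was called by edgeR for 0 of the 31, with 6 at an unadjusted p under 0.05, 1 by DESeq2 and 0 by limma-voom. Over all 14062 genes edgeR called 1242, DESeq2 1701 and limma-voom 1051.

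Of the 7 listed upstream kinase genes 3 rose with MCD in both genotypes, beside 29.3% of all genes higher in Cre and 22.5% in FLCN KO livers. *Mtor*, the kinase of mTORC1, was higher by 0.63 in Cre (adjusted p = 6.4e-05 by edgeR) and by 0.64 in FLCN KO livers (adjusted p = 1.1e-04 by edgeR), and *Mlst8*, its partner subunit, by 0.74 and 0.61 (adjusted p = 4.9e-06 and 8.4e-05 by edgeR). *Prkab2*, a regulatory subunit of AMPK, rose by 1.04 in Cre and 0.56 in FLCN KO livers (adjusted p = 1.6e-05 and 0.0086 by edgeR). Among the others *Prkaa2*, a catalytic subunit of AMPK, was called lower in Cre livers (−0.55, adjusted p = 0.0023 by edgeR), and was −0.15 in FLCN KO livers (adjusted p = 0.42 by edgeR). Between genotypes, beside 5.52% of all genes higher in FLCN KO on chow and 8.06% on MCD, *Prkaa1*, the other catalytic subunit, was higher by 0.47 on chow and 0.41 on MCD (adjusted p = 0.012 and 0.016 by edgeR), and *Prkaa2* by 0.56 on MCD (adjusted p = 0.0090 by edgeR); on chow *Prkaa2* was 0.16 (adjusted p = 0.55 by edgeR). For *Prkaa1* on chow the call was lost within both classes of livers, at 0.46 and 0.49 (adjusted p = 0.096 and 0.32 by edgeR), and without the 5 chow libraries of low mapped share (0.45, adjusted p = 0.14 by edgeR). On MCD the call of *Prkaa1* was lost without Cre MCD 4 (0.35, adjusted p = 0.056 by edgeR) and within both classes, at 0.33 and 0.46 (adjusted p = 0.14 and 0.23 by edgeR). Within the livers with Y-linked counts the values of *Mtor* were 0.47 in Cre and 0.62 in FLCN KO, and neither passed (adjusted p = 0.090 and 0.055 by edgeR). Within the livers with *Xist* *Prkab2* in FLCN KO was 0.50 (adjusted p = 0.087 by edgeR), and without the 5 chow libraries of low mapped share 0.38 (adjusted p = 0.098 by edgeR).

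Conjugation genes were divided. *Atg3*, the E2-like enzyme that acts after ATG7, was lower with MCD in Cre livers (log2 fold change −0.81, SE 0.0828, adjusted p = 6.1e-08 by edgeR), and so was *Atg4a*, a protease that trims ATG8 proteins (−0.61, adjusted p = 0.0018 by edgeR). Both were lower in FLCN KO livers too, at −0.44 and −0.43 (adjusted p = 1.6e-04 and 0.023 by edgeR). On chow *Atg3*, *Atg12* and *Atg5* were lower in FLCN KO than in Cre livers, with log2 fold changes of −0.29, −0.27 and −0.23 (adjusted p = 0.029, 0.021 and 0.030 by edgeR), and these 3 calls were lost within each class of livers; over 13 other fits they were made in 7, 6 and 6. On MCD the values of *Atg3*, *Atg12* and *Atg5* were 0.073, −0.032 and −0.070 (adjusted p = 0.61, 0.81 and 0.51 by edgeR). *Atg10*, the second E2-like enzyme, was higher in FLCN KO on MCD by 0.53 (adjusted p = 0.0069 by edgeR), and was −0.013 on chow (adjusted p = 0.97 by edgeR). With MCD 4 of the 8 conjugation genes were called in Cre livers, all lower, and 2 lower and 2 higher in FLCN KO livers, which is 50% in both, beside 57.5% and 45% of all genes. Of 8 genes of the PI3-kinase complex and its regulators 4 were lower and 3 higher in Cre livers, and 3 lower and 2 higher in FLCN KO livers, or 87.5% and 62.5% of the list. *Vmp1*, a scramblase of the endoplasmic reticulum, was higher by 0.54 with MCD in FLCN KO (adjusted p = 6.0e-04 by edgeR), and *Nrbf2*, a subunit of the *Atg14*-containing complex, lower (log2 fold change −0.45, adjusted p = 0.0078 by edgeR). In Cre livers they were called the same way, at 0.38 and −0.41 (adjusted p = 0.0066 and 0.011 by edgeR). Of the 3 ULK complex partners 1 was called, lower in Cre livers, and of the 5 tested PI3P effectors 2, both lower in Cre livers, so 33.3% and 40% of these lists were called there. Over 13 other fits *Atg4a* in Cre and *Nrbf2* in FLCN KO were called in 11, and *Vmp1* in FLCN KO and *Atg10* and *Prkaa2* between genotypes on MCD in 12.

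**Figure D4:**
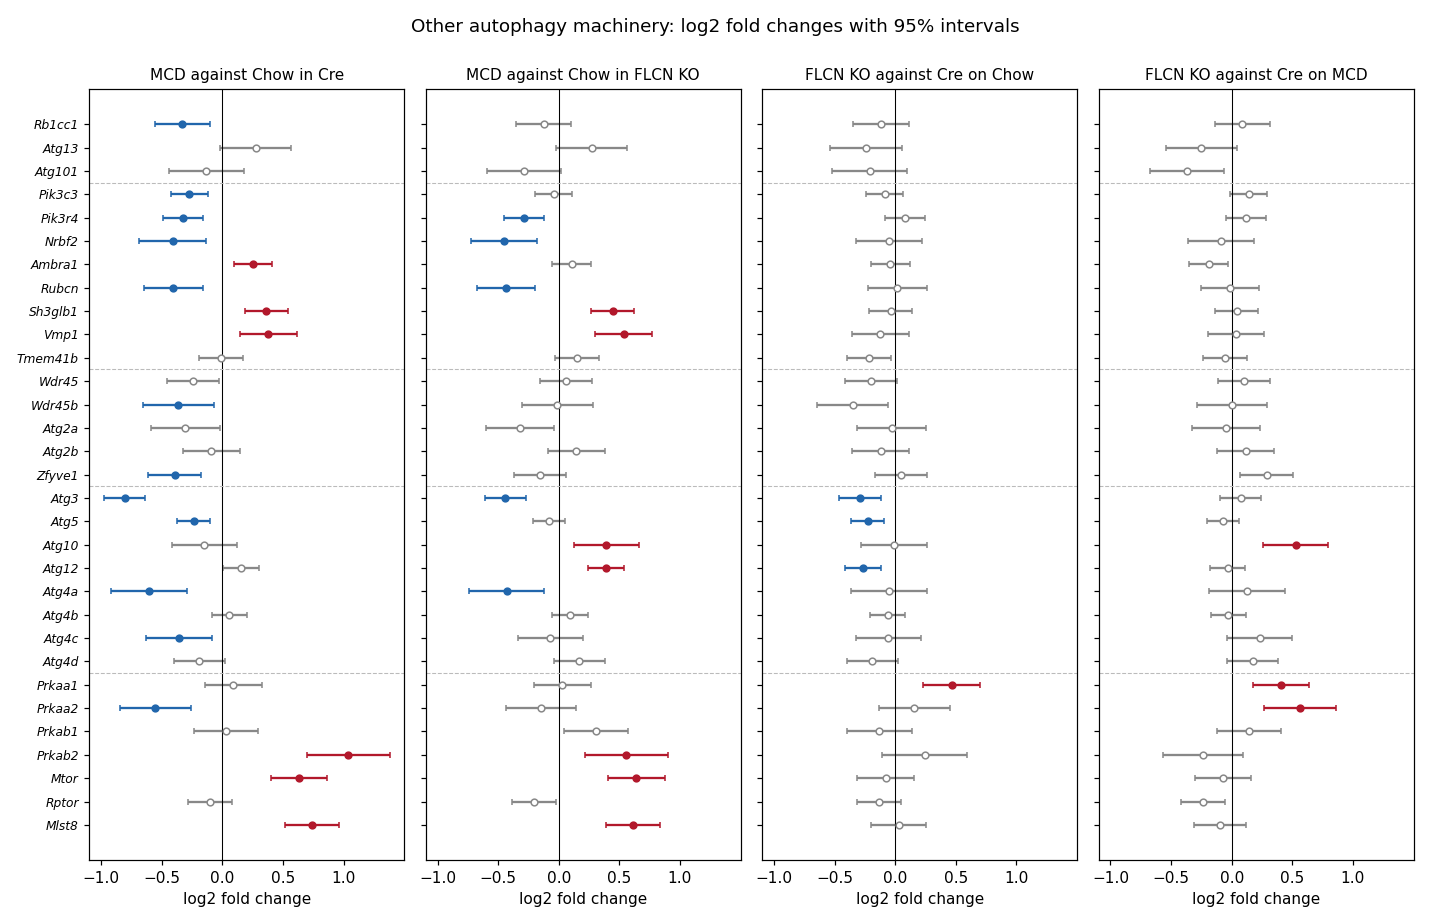
Log2 fold changes (horizontal axis) of the 31 tested genes of the wider machinery in the 4 comparisons, with 95% intervals; filled points passed an adjusted p of 0.05 by edgeR, blue lower and red higher, and dashed lines separate ULK complex partners, the PI3-kinase complex, PI3P effectors, conjugation genes and upstream kinases. The first panel holds 18 filled points and the last 3, and *Prkab2*, *Mtor* and *Mlst8* lie to the right of 0 in both MCD panels.

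For the 3 members called in at least 2 of the 4 comparisons, the genes with the most similar levels over the 22 livers were sought among 12846 genes by Pearson's r of log2 CPM. *Sar1b* (r = 0.959), *Epb41l4b* (r = 0.957) and *Prkd3* (r = 0.955) were nearest to *Ulk2*. For *Atg14* these were *Cyp2c67* (r = 0.948), *Fbxl20* (r = 0.940) and *Epb41l4b* (r = 0.939), and for *Atg9a* *Cdh2* (r = 0.941), *Cps1* (r = 0.925) and *Mtus1* (r = 0.924). The points share diet groups and libraries, so these values describe the pattern over the groups.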

How the data were processed

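The authors extracted RNA from frozen liver, made mRNA libraries with the KAPA kit and adapters that carry molecular identifiers, trimmed single-end reads with Trimmomatic, aligned them to GRCm38 with STAR and counted them per gene with HTSeq. They deposited 1 table of raw counts for 22 libraries; versions, annotation release, strand setting and any collapsing of identifiers are not given in the sources used here, so counts were treated as reads. All columns matched a label. A gene was tested if its counts averaged 10 or more over the libraries, in R 4.3.3 with edgeR 4.0.16 (TMM, 1 fit of 4 groups, Benjamini-Hochberg adjustment). CPM and RPKM were computed with TMM library sizes and GENCODE M21 exon lengths. No 2 of 50 pairs of libraries within groups were identical (Spearman's rho of 0.939 to 0.994, across genes). The tests were checked on simulated data. Alternatives used limma 3.58.1 (voom), DESeq2 1.42.0, other scalings, filters, covariates and sets of libraries.

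Besides the 10 genes and *Flcn*, the text names per comparison the 5 called genes of the other lists with the largest absolute log2 fold change, and for each member called in at least 2 comparisons the 3 genes of at least 1 CPM with the highest Pearson's r; *Prkaa2* in Cre livers was named after its value was seen. The members and lists were chosen with earlier results of these data known. The 3 choices of libraries by *Xist* and *Ddx3y* counts were added after seeing the data.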

Additional observations from a re-analysis of the deposited data

Results flagged for a closer look

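In 4 of the 40 gene and group combinations of the 10 genes, 1 liver lay farther from the rest of its group than Dixon's 95% limit allows, where chance alone would give about 1 in 20. *Atg14* was 28.8 CPM in Cre Chow 6 and 15.6 to 19.8 CPM in the other Cre Chow livers, and *Atg16l1* was 40.7 CPM in the same liver against 31.3 to 33.7 CPM. *Atg7* was 72.6 CPM in FLCN KO Chow 1, against 41.2 to 49.8 CPM in the other FLCN KO Chow livers. *Atg16l1* was 25.9 CPM in FLCN KO Chow 5, against 30.7 to 32.6 CPM. Cre Chow 6 and FLCN KO Chow 1 are among the 5 chow livers that had both Y-linked counts and a low mapped share of reads; the part of either in these values was not tested.

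The test of the difference between genotypes called the response of *Ulk2* to MCD, with an interaction of 0.74 on the log2 scale (adjusted p = 0.038 by edgeR). The call was lost in 11 of 22 fits that left out 1 library and in 6 of 12 with another tool, scaling, filter, covariate or set of libraries, among them the fit without the 5 chow libraries of low mapped share (0.61, adjusted p = 0.16 by edgeR). The level was lower with MCD in both genotypes, and on chow it was lower in FLCN KO than in Cre livers.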

How the results depend on the processing

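Over 640 refits of the 10 genes that changed the tool, scaling, filter, covariate or libraries, 551 kept direction and side of the threshold, 52 were called in neither fit and changed sign (largest 0.244), 20 lost a call, 14 gained one and 3 reversed, all on library size alone with MCD in Cre livers: *Becn1* to 0.19, *Wipi2* to 0.36 and *Atg7* to 0.30 (adjusted p = 0.026, 0.0045 and 0.030 by edgeR), which follow the shift of 0.42 in the median of all genes and are not particular to these 3. Library size alone called 8 of the 10 genes with MCD in Cre livers, 2 on chow and 0 for the interaction, and 1 of the other machinery on chow. Over all 14062 genes it called 9648 with MCD in Cre livers, 1577 on chow and 1413 for the interaction. The main fit called 8089, 1212 and 1242 there. Livers with Y-linked counts alone called 1 of the 10 with MCD in FLCN KO and 0 on MCD and for the interaction. Of the other machinery they called 7, 5, 0 and 0 over the 4 comparisons. Over all 13967 genes they called 4685, 2905, 335 and 720 over the 4 comparisons and 63 for the interaction. Livers with *Xist* alone called 2 of the 10 for the interaction, and of the other machinery 11 with MCD in Cre, 0 on chow and 1 for the interaction. Over all 14095 genes they called 7400 with MCD in Cre, 627 on chow and 1219 for the interaction. Without the 5 chow libraries of low mapped share the interaction called 0 of the 10 and chow 0 of the other machinery. Over all 14271 genes that fit called 783 for the interaction and 495 on chow. The interaction also called 0 of the 10 without a filter and without the 2 libraries with both *Xist* and *Ddx3y*. Those 2 fits called 852 of 32124 and 683 of 14026 genes for the interaction. On chow the other machinery had 1 call without a filter and 2 in a fit of only the groups compared, and DESeq2 gave 1 for the interaction. Over all genes these 3 fits called 934 of 32124, 1018 of 13377 and 1701 of 14062. The cause of these differences between fits was not tested.

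Of 1100 values of the 10 genes with 1 library left out, 1037 kept direction and side of the threshold and 43, called in neither fit, changed sign (largest 0.136). Leaving out 1 library gave 5 to 5, 4 to 5, 1 to 1, 1 to 1 and 0 to 1 calls of the 10 over the 4 comparisons and the interaction, and 16 to 20, 11 to 14, 1 to 5, 2 to 5 and 0 to 2 of the other machinery. The count on chow fell to 1 without FLCN KO Chow 4 and to 2 without Cre Chow 1 or 3, Cre MCD 5 or FLCN KO Chow 3; that on MCD rose to 5 without Cre Chow 1 or Cre MCD 3; that of the interaction rose to 2 without Cre MCD 3 or FLCN KO MCD 2.

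The labels number mice within each group, 1 to 6 in Cre Chow and FLCN KO MCD and 1 to 5 in Cre MCD and FLCN KO Chow. Deviations of the 5 same-numbered pairs correlated at −0.136 to −0.015 and −0.187 to 0.210 between diets in Cre and FLCN KO, at −0.551 to 0.470 between genotypes on chow and at 0.062 to 0.262 on MCD, where all 5 were positive but not all over 0.1, and 0, 1, 1 and 2 of 5 correlated best with their own number. The numbers were not taken as pairs. In a fit with a replicate block the interaction of *Ulk2* was 0.60 (adjusted p = 0.10 by edgeR), so 0 of the 10 were called there, and 2 of the other machinery on chow. Over all 14062 genes that fit called 552 for the interaction and 869 on chow. In the same fit *Atg16l1* with MCD in FLCN KO was 0.21 (adjusted p = 0.061 by edgeR) and *Ulk1* −0.39 (adjusted p = 0.016 by edgeR).

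With 5 or 6 mice per group, and chow livers that differed in mapped share, small differences cannot be separated from the spread between mice.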
